A study of Mus musculus with 39 samples.

Results

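The genes described here are the collagens of the dura mater, a tough membrane between skull and brain, and of masseter, a jaw-closing muscle, in mice given collagenase, an enzyme that cuts collagen fibres. The members were all gene symbols made of Col, a number, the letter a and a number, without the 7 cartilage collagens Col2a1, Col9a1, Col9a2, Col9a3, Col10a1, Col11a1 and Col11a2, which left 37 of 23412 gene symbols. They fall into 8 fibrillar collagens (Col1a1, Col1a2, Col3a1, Col5a1, Col5a2, Col5a3, Col24a1, Col27a1), the 6 basement membrane chains Col4a1 to Col4a6, the 6 chains Col6a1 to Col6a6 and 17 others. All 37 were tested in dura, and 36 in masseter, where Col6a4 did not pass the filter on low counts. Its masseter values were 1.23 CPM or less in 16 of the 17 libraries and 122 CPM in saline day 28 library 2, so no test is given for it there. The study modelled pain referred from an injected chewing muscle, and the question for these genes is whether the enzyme was followed by a change in collagen transcripts away from, or at, the injected site.

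All mice were labelled wild-type, and the labels give no age. Dura was taken at day 2 after 10 U of collagenase type I in the temporal muscle, which lies over the side of the skull (12 libraries). The dura controls were temporal-muscle saline (4 libraries) and saline whose site the labels leave out (6 libraries, with the word naive in their titles), here called saline. Masseter was taken at day 28 after 4 injections of 0.2 to 0.5 U into the temporal muscle (3 libraries), at day 38 and at day 52 after 4 such injections into the masseter (3 libraries each), and at day 28 and day 38 after saline in the masseter (4 libraries each). Neither saline masseter of day 52 nor masseter after saline in the other muscle was analysed here. Libraries held 12.1 to 32.3 M (mega) counts, and the labels do not say that they came from separate animals, so each p measures the spread between these samples.

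Collagens are secreted proteins in which 3 chains wind into a helix. Fibrillar types I, III and V form the fibres that give tendon, bone, dura and the sheaths of muscle their strength and are made by fibroblasts and osteoblasts. Type IV forms the sheet-like network under endothelium and around each muscle fibre, and type VI forms beaded filaments that link that sheet to the fibres. The remaining collagens sit on fibril surfaces, span cell membranes or anchor epithelia.

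The Col4 genes lie in pairs, and the promoter windows of the first pair, together with that of the type I chain Col1a2, are shown because these genes carry the main results in masseter. Windows run from 250 bases before to 50 after the annotated start (RefSeq, GRCm38.p6), and 30 of the 37 members had one. Col4a1 (chr8:11312777-11313076, minus strand) and Col4a2 (chr8:11312555-11312854, plus strand) are read in opposite directions. The starts used for their windows lie 21 bases apart, so that the windows share 78 bases. The RefSeq gene position of Col4a1 reaches to 11312889, upstream of the start used for its window. The Col1a2 window is chr6:4505368-4505667, plus strand. Each sequence runs 5′ to 3′ on its gene's own strand, and capitals mark CCAAT and GGGCGG or their reverse complements.
Col4a1: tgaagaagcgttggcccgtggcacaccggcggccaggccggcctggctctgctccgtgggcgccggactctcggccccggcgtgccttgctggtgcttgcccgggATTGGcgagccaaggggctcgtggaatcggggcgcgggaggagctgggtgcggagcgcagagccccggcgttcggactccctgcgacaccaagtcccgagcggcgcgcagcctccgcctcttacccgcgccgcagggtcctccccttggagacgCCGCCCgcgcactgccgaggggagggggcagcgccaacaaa
Col4a2: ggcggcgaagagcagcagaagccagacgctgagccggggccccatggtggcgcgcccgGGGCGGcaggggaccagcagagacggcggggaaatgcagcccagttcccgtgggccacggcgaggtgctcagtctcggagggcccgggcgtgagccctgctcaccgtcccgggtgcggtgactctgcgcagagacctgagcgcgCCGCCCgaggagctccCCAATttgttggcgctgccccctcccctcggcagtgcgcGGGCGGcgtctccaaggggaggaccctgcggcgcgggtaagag
Col1a2: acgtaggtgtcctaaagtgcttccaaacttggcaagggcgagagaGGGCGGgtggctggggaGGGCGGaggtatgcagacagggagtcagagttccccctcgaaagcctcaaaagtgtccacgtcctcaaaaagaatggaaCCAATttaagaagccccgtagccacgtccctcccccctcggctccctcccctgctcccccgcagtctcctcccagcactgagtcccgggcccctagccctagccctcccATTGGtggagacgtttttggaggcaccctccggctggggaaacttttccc
Both strands were searched. CCAAT was present in 11 of the 30 member windows and in 37.4% of all 32851 windows in the table. GGGCGG was present in 19 of the 30 and in 35.7% of all, and TATAAA in 3 of the 30 and in 13.6% of all. One GGGCGG copy is the same stretch of DNA in the Col4a1 and Col4a2 windows, so those 2 are not separate matches. A match describes the letters of a window and not a bound factor. The members also neighbour each other elsewhere in the same table: Col3a1 and Col5a2 on chromosome 1, Col4a3 and Col4a4 on chromosome 1, Col4a5 and Col4a6 on chromosome X, Col6a1 and Col6a2 on chromosome 10, and Col6a4, Col6a5 and Col6a6 on chromosome 9.

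The groups differed in more than treatment. The dura collagenase libraries were all paired-end by their fragment lengths and the 10 dura controls single-end, so layout and collagenase cannot be told apart there, and among masseter libraries the 4 of saline day 28 were single-end, the remaining 13 paired-end. Groups were also unmatched for sex-linked genes: Xist was at 283 CPM or more in each of the 3 temporal-muscle collagenase and 4 saline day 28 masseter libraries, against 0.455 CPM or less in every other masseter library. Tissue labels held, with the muscle enzyme Ckm at 12973 CPM or more in every masseter library and the meningeal factor Foxc1 at 65.7 CPM or more in every dura library. In 5 dura collagenase libraries, picked for these markers, genes of a neighbouring tissue stood out: 6 brain markers summed to 8989 and 7795 CPM in libraries 1 and 7, against 980 to 3903 CPM in the other 10; 6 skeletal muscle markers summed to 35717 and 12055 CPM in libraries 4 and 8; library 7 had 4223 CPM of them; and in library 6, 5 pituitary markers summed to 1306 CPM. CPM are counts per M counts after scaling.

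Collagen transcripts were more abundant in dura than in masseter. On the TPM scale, which accounts for gene length, all 37 members summed to a median of 7579 TPM in dura (range 2064 to 14015, n = 22) and to 1080 TPM in masseter (404 to 2228, n = 17). The fibrillar class held a median of 69.5% of that sum in dura and 64.1% in masseter. Type IV held 3.75% in dura and 15.3% in masseter. In dura, Col1a1 and Col1a2 led in every group by median TPM, at 2443 and 2217 TPM after collagenase. In masseter Col1a2 led in 4 groups and Col1a1 in the fifth, temporal-muscle collagenase at day 28, where the medians of the 2 chains were 600.4 and 592 TPM. Depending on the group, 2 to 12 members had a median of 100 TPM or more.

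**Figure D1:**
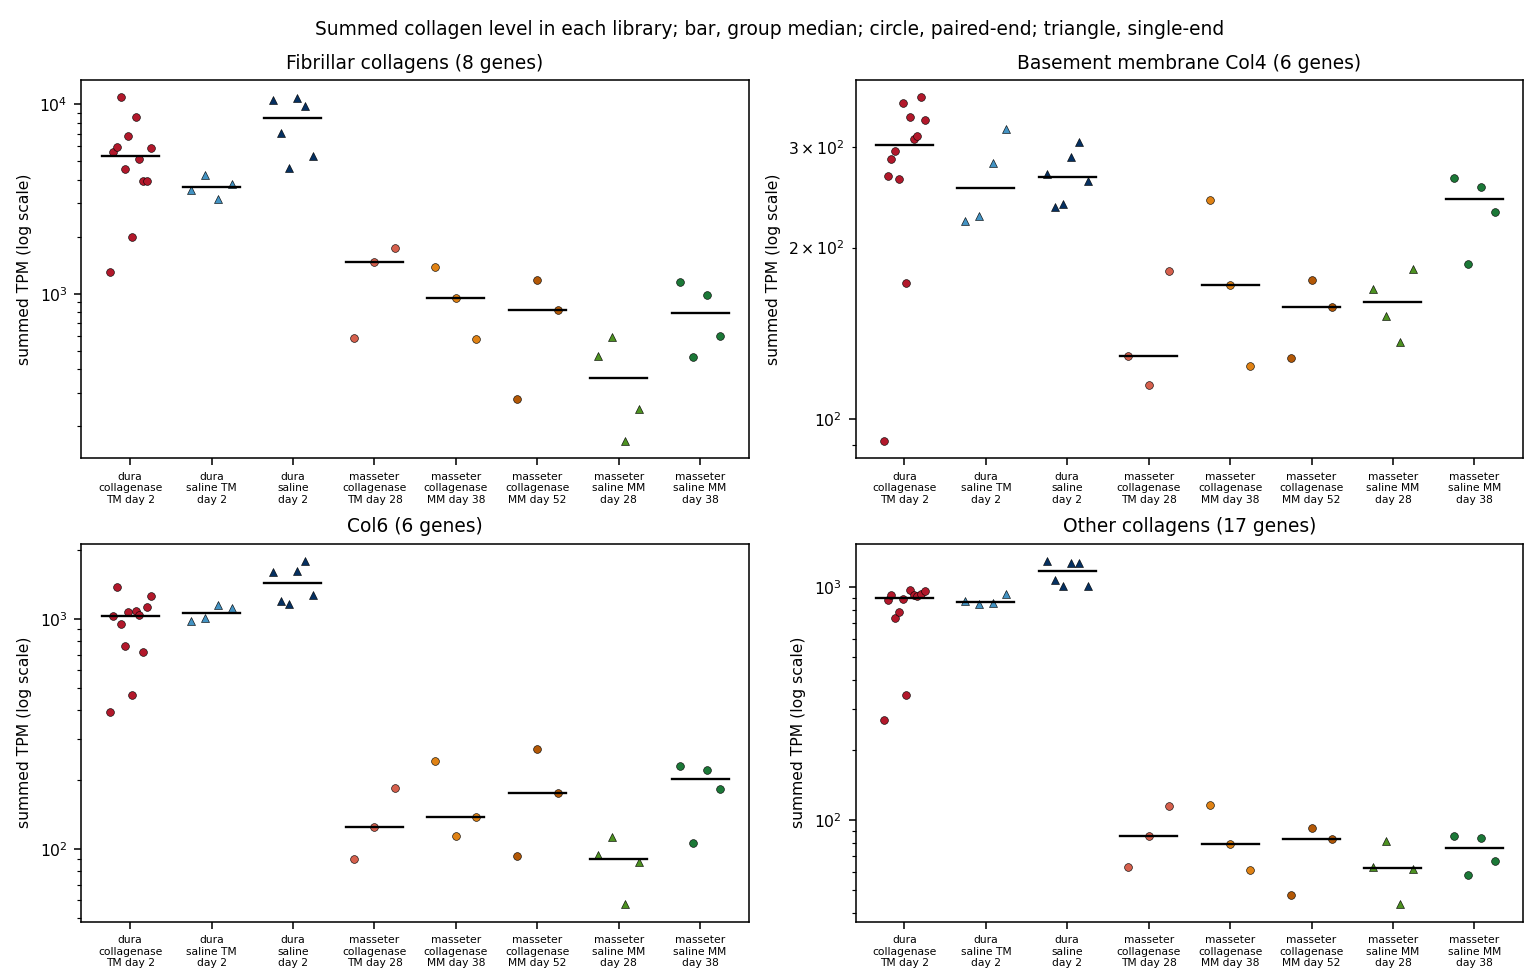
Summed TPM of each collagen class (log axis) in each of the 39 libraries, by group, with a bar at the group median; circles are paired-end and triangles single-end libraries. Fibrillar sums run from 1309 to 10862 TPM in dura after collagenase, a range that takes in all 4 libraries of temporal-muscle saline and all 6 of saline.

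In dura at day 2, few collagens differed between collagenase and saline given in the same muscle. Col27a1, a minor fibrillar chain, and Col24a1, another minor fibrillar chain, were higher, and Col17a1, a membrane-spanning collagen that anchors epithelial cells, was lower. That is 3 of 37 members called at an adjusted p under 0.05 (edgeR's quasi-likelihood test, adjusted by Benjamini-Hochberg over all genes, as for every adjusted p here unless another tool is named), where 24.4% of the 16363 genes tested were called. In bulk tissue, fewer cells of a type and less RNA per cell cannot be told apart.

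Col27a1 was at 30.7 CPM in the lowest, 60.8 CPM in the median and 75.7 CPM in the highest collagenase library, against 35.4, 38.3, 34.0 and 35.3 CPM after temporal-muscle saline. Of the 12 collagenase libraries, 11 lay above all 4 saline libraries and library 1 lay below them. The log2 fold change was 0.75 ± 0.18 (SE, adjusted p = 0.0038). Col17a1 was at 0.639, 2.59 and 5.84 CPM in the lowest, median and highest collagenase library, against 5.54, 11.1, 13.4 and 7.66 CPM after saline. It lay below all 4 saline libraries in 11 of the 12, with a log2 fold change of -1.77 ± 0.36 (adjusted p = 0.00124).

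Col24a1 was at 1.85, 3.59 and 46.1 CPM in the lowest, median and highest collagenase library, against 1.08, 2.64, 2.13 and 1.72 CPM after saline (log2 2.45 ± 0.85, adjusted p = 0.0412). The groups overlapped, with 8 of the 12 above every saline library, and the call was lost without collagenase library 1, 4 or 7 or any 1 of the 4 saline libraries. Its highest values, 31.7 and 46.1 CPM, came from libraries 1 and 7, those with the highest brain markers. Without the 5 libraries in which markers of a neighbouring tissue stood out, the log2 fold change was 0.50 with an adjusted p of 0.169. The part of those markers in the Col24a1 difference was not tested.

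The large fibrillar collagens did not pass the test. All 8 fibrillar members had a positive log2 fold change, with a median of 0.71 against 0.06 over all genes tested, and 2 of the 8 were called. Col1a1, the alpha-1 chain of type I, was at 1468, 6036 and 16368 CPM in the lowest, median and highest collagenase library, against 3608, 5322, 3593 and 4084 CPM after saline. Collagenase libraries lay on both sides of the saline range, 7 above and 2 below it, and the log2 fold change of 0.64 had a 95% interval of -0.22 to 1.49 (adjusted p = 0.286). The 2 below were libraries 1 and 7, and the 2 highest were libraries 4 and 8, those with the highest skeletal muscle markers.

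Without those 5 libraries, 9 of 37 members were called where 31.8% of all genes were. Of the 9, 7 were higher, where 15.7% of all genes were, and 2 were lower, where 16.1% were. The members' share called, 24.3%, was below that of all genes. Of the 8 fibrillar members, 3 were called (Col1a2, Col3a1, Col27a1), and Col24a1 no longer was. The higher ones were Col1a2 (log2 0.65, adjusted p = 0.0281), Col3a1 (0.50, adjusted p = 0.0394), Col27a1 (0.71), Col6a3 (0.73, adjusted p = 0.00357), Col4a1 (0.34, adjusted p = 0.0297), Col4a5 (0.42, adjusted p = 0.0239) and the endothelial and corneal sheet collagen Col8a1 (0.54, adjusted p = 0.0101). Col17a1 and Col13a1, both membrane-spanning, were lower.

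Against the other dura control, saline at an unnamed site, the medians of the fibrillar and Col6 classes had the opposite sign. Here 5 members were called, where 36.7% of the genes tested were. Col8a2, partner of Col8a1 in the sheet collagen, Col16a1, a fibril-associated collagen, and Col6a1 were lower, while Col6a6 and Col19a1, both at low levels, were higher. Col27a1, Col24a1 and Col17a1, the members called against temporal-muscle saline, were not called here. Of the 12 collagenase libraries, 4 lay above and 2 below every saline library for Col27a1. For Col17a1, 4 of the 12 lay below every saline library and 0 above. The fibrillar median was -0.26 and the Col6 median -0.53, against 0.06 over all genes.

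Col8a2 was at 139, 496 and 666 CPM in the lowest, median and highest collagenase library, against 634, 817 and 973 CPM in the lowest, median and highest of the 6 saline libraries. Of the 12, 11 lay below every saline library (log2 -0.79 ± 0.24, adjusted p = 0.0149). Col16a1 was at 96.8, 319 and 532 CPM, against 414, 558 and 608 CPM in saline, with 10 of 12 below every saline library (log2 -0.73 ± 0.24, adjusted p = 0.0243). Col6a1, the alpha-1 chain of type VI, was at 455, 972 and 1278 CPM, against 1063, 1306 and 1629 CPM in saline, with 9 of 12 below every saline library (log2 -0.54 ± 0.18, adjusted p = 0.0215). Without saline library M2 neither Col6a1 nor Col16a1 was called, nor was Col16a1 without F1.

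Col6a6 was at 0.340, 0.987 and 3.26 CPM after collagenase, against 0.0819, 0.394 and 0.634 CPM in saline (log2 1.91 ± 0.51, adjusted p = 0.00763). Col19a1 was at 0.198, 0.537 and 5.30 CPM after collagenase, against 0.164, 0.198 and 0.470 CPM in saline (log2 2.36 ± 0.72, adjusted p = 0.0167). The ranges overlapped for both, with 9 and 7 of the 12 collagenase libraries above every saline library. Col19a1, like Col24a1, was highest in libraries 7 and 1, at 5.30 and 4.33 CPM.

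Without the 5 libraries, 16 of 37 members (43.2%) were called against saline, where 38.9% of all genes were. Of these, 12 were lower, where 18.8% of all genes were, and 4 higher, where 20% were. The added lower ones were Col1a1 (log2 -0.72, adjusted p = 0.0146), Col1a2, Col3a1, Col5a1, Col5a2, Col6a3, Col12a1, Col14a1 and Col22a1, and the added higher ones Col4a1 and Col7a1. Col1a2, Col3a1 and Col6a3 were thus higher than temporal-muscle saline and lower than saline in the same 7 collagenase libraries: their log2 fold changes against saline were -0.57 (adjusted p = 0.0221), -0.58 (adjusted p = 0.00724) and -0.66 (adjusted p = 0.00214). Both comparisons share the collagenase libraries and both controls were single-end.

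Between the 2 dura control groups, the fibrillar class lay lower after temporal-muscle saline, though few members passed the test. All 8 fibrillar members had a negative log2 fold change in temporal-muscle saline relative to saline, with a median of -1.09 against 0.01 over all genes, and 6 of the 8 were lower in every library than in every saline library, as were 9.63% of all genes tested. Only Col27a1 and Col6a3 passed the test, 2 of 37 members where 4.25% of all genes were called and 2.24% were lower. The call of Col27a1 was lost whichever of the 10 libraries was left out, and that of Col6a3 without saline F1, F2, M1 or M2 or temporal-muscle saline 2, 3 or 4. Across all 37 members, 12 were lower and 2 higher in every library of temporal-muscle saline than in every saline library, where 9.63% and 10.3% of all genes were.

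Col6a3, the long alpha-3 chain of type VI, was at 159, 133, 125 and 114 CPM after temporal-muscle saline, against 256, 348 and 465 CPM in the lowest, median and highest saline library (log2 -1.41 ± 0.37, adjusted p = 0.0384). Col27a1 was at 35.4, 38.3, 34.0 and 35.3 CPM after temporal-muscle saline, against 47.9, 57.4 and 67.9 CPM in saline (log2 -0.69 ± 0.19, adjusted p = 0.0462). Neither overlapped. Col1a2, which was not called, was at 3788, 3838, 2957 and 3665 CPM after temporal-muscle saline, against 4851, 8939 and 11166 CPM in saline (log2 -1.23, 95% interval -2.12 to -0.35, adjusted p = 0.12), again with no overlap. When these 2 groups were fitted without the collagenase libraries, 19 of 36 members were called rather than 2 of 37, where 29.4% of all genes in that fit were called, among them Col1a1, Col1a2, Col3a1, Col5a1 and Col5a2.

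The summed bone cell markers, like the fibrillar sum, had their highest median in saline. Their medians in the 2 other dura groups lay close together, with overlapping ranges. The sum of 10 markers, among them osteocalcin (Bglap) and Sp7, was 373 to 2117 CPM after collagenase, 823 to 1389 CPM after temporal-muscle saline and 1571 to 3422 CPM in saline, with none of the 10 at 0 in any of these groups. The medians were 1044 CPM after collagenase, 1093 CPM after temporal-muscle saline and 2523 CPM in saline, beside fibrillar medians of 5356, 3660 and 8422 TPM. Fibroblast markers, 9 in all, summed to 746 to 4117 CPM, 1908 to 2632 CPM and 2842 to 4432 CPM in the same order. Tested singly, 2 of the 10 bone markers were higher after collagenase than after temporal-muscle saline and 0 lower. Of all genes, 13.3% were higher and 11.1% lower there. Against saline, 0 of the 10 were higher and 3 lower, where 21.4% and 15.3% of all genes were. Of the 9 fibroblast markers, 0 were called against temporal-muscle saline, and 2 were lower and 0 higher against saline. The part of either cell type in the collagen differences was not tested.

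**Figure D2:**
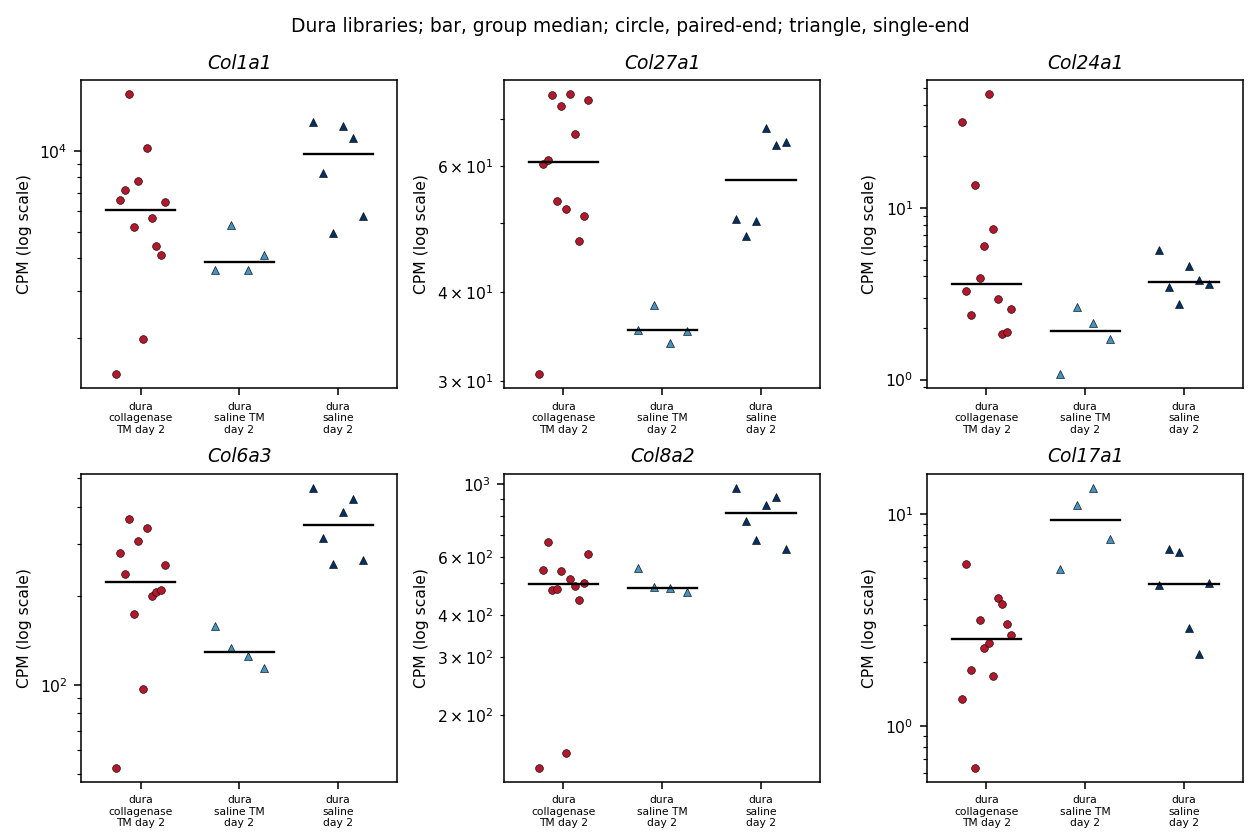
CPM (log axis) of 6 collagens in each dura library, by group, with a bar at the group median; circles are paired-end and triangles single-end. Col27a1 separates 11 of the 12 collagenase libraries from the 4 after temporal-muscle saline, and Col8a2 separates 11 of the 12 from the 6 after saline.

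In masseter at day 28, after collagenase in the neighbouring temporal muscle, both type I chains and 2 of the 3 type V chains were higher than in saline masseter of the same day. Col1a1, Col1a2, Col5a1 and Col5a2 were called higher and none lower, 4 of 36 members where 2.95% of the 14652 genes tested were called, 1.17% higher and 1.77% lower. Type I is the main fibre protein of tendon and bone, and type V sits inside type I fibrils and sets their width. The fibrillar median was 1.25 and the Col6 median 0.93, against -0.03 over all genes, and 14 of 36 members were higher in all 3 collagenase libraries than in all 4 saline libraries, as were 9.41% of all genes tested, and 0 were lower in all, where 8.57% of all genes were.

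Col1a1 was at 672, 1580 and 1681 CPM in the 3 collagenase libraries, against 325, 411, 79.5 and 103 CPM in the saline day 28 libraries. The groups did not overlap, and the lowest collagenase library, number 11, lay closest to saline (log2 2.51 ± 0.61, adjusted p = 0.0424). Col1a2 was at 772, 1713 and 1925 CPM, against 462, 586, 144 and 196 CPM in saline, with no overlap (log2 2.08 ± 0.51, adjusted p = 0.0433). Col5a1 was at 89.5, 99.4 and 154 CPM, against 60.2, 49.6, 30.5 and 36.9 CPM in saline (log2 1.37 ± 0.34, adjusted p = 0.047). Col5a2 was at 84.2, 109 and 146 CPM, against 58.2, 52.8, 27.0 and 41.1 CPM in saline (log2 1.34 ± 0.33, adjusted p = 0.0435). Each call depended on single libraries: of the 7 fits that left out 1, Col1a1 and Col1a2 were called only without collagenase library 11 or saline library 2, and Col5a1 and Col5a2 only without saline library 1. With these 2 groups fitted alone none of the members was called, where 0.657% of all genes were. The remaining type V chain, Col5a3, averaged 64.9 ± 11.9 CPM after collagenase and 47.0 ± 16.1 CPM in saline (SD, n = 3 and 4), with overlapping groups, and was not called (log2 0.47, adjusted p = 0.401).

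Col3a1 and the 5 type VI chains tested also lay higher in every collagenase library but did not pass the test. Col6a4, which was not tested, was at 0, 0 and 0.0896 CPM after collagenase, against 0.0874, 122, 1.23 and 0 CPM in saline. Col3a1, which forms thin fibres with type I, differed by 1.17 on the log2 scale (adjusted p = 0.15), and Col6a3 by 0.97 (adjusted p = 0.077). Basement membrane chains did not share this direction: the Col4 median was -0.04, 2 of 6 members had a positive value, and Col4a1 was at 360, 237 and 372 CPM after collagenase against 366, 277, 291 and 362 CPM in saline, with overlapping groups.

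Markers of bone cells and of other cell types stood beside this rise too. The 10 bone cell markers summed to 142, 342 and 372 CPM in the 3 collagenase libraries, in the same order as Col1a1. In the saline day 28 libraries they summed to 68.0, 150, 34.5 and 38.7 CPM, so the groups overlapped. Bglap itself was at 34.5 to 129 CPM after collagenase, against 0.104 to 11.6 CPM in saline, and none of the 10 was at 0 in every library of either group. Cartilage markers, 7 in all, of which 1 was at 0 in every collagenase library, summed to 27.5 to 41.4 CPM after collagenase and 2.27 to 15.2 CPM in saline. Neutrophil markers, 6 in all, summed to 69.9 to 648 CPM and 4.82 to 40.2 CPM. Fibroblast markers, 9 in all, summed to 761 to 1077 CPM after collagenase and 424 to 718 CPM in saline. Tendon markers, 5 in all, summed to 189 to 432 CPM and 84.9 to 140 CPM. Tested singly, 1 of 10 bone, 1 of 4 tested cartilage and 1 of 6 neutrophil markers were higher and 0 lower, where 1.17% and 1.77% of all genes were. Neither the fibroblast nor the tendon list held a called gene. Of 6 skeletal muscle markers 1 was higher, and of 6 pericyte and smooth muscle markers 1 was lower. The part of these markers, of layout or of the injected muscle in the result was not tested.

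**Figure D3:**
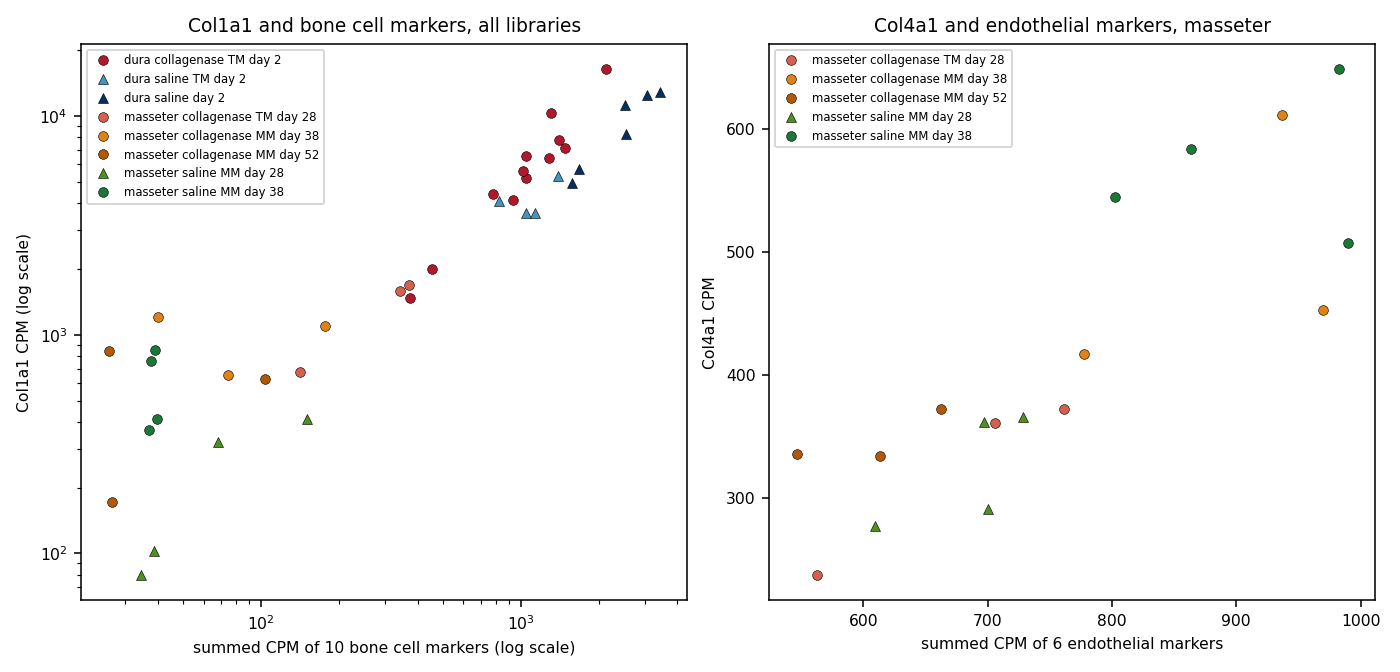
Left, CPM of Col1a1 against the summed CPM of 10 bone cell markers in all 39 libraries (both axes log); right, CPM of Col4a1 against the summed CPM of 6 endothelial markers in the 17 masseter libraries. The 2 masseter libraries after temporal-muscle collagenase with the highest Col1a1 (1580 and 1681 CPM) have bone marker sums of 342 and 372 CPM, and the 4 saline day 38 libraries hold 4 of the 5 highest Col4a1 values with endothelial sums of 803 to 990 CPM.

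Set against the paired-end saline day 38 masseter, the same 3 collagenase libraries differed in other collagens. Day, injected muscle and sex-linked genes also separate these groups and cannot be told apart from collagenase. Of 36 members, 5 were called higher, where 5.12% of all genes were, and 4 lower, where 5.79% were (10.9% either way). Higher were the fibril-associated collagens Col12a1, Col16a1 and Col22a1, the last of which is found at the muscle-tendon junction, together with the membrane collagen Col13a1 of the neuromuscular synapse and the fibrillar Col24a1. Lower were Col4a1, Col4a2, Col18a1, a basement membrane collagen and source of endostatin, and Col28a1. Type I and type V were not called in this comparison: Col1a1 differed by 1.13 on the log2 scale (adjusted p = 0.257).

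Col16a1 was at 28.8, 44.4 and 64.6 CPM after collagenase, against 11.6, 9.32, 14.9 and 9.93 CPM in saline day 38 (log2 2.01 ± 0.47, adjusted p = 0.015). Col13a1 was at 4.13, 7.21 and 10.5 CPM, against 1.75, 1.10, 2.38 and 1.33 CPM (log2 2.14 ± 0.53, adjusted p = 0.0205). Col12a1 was at 33.5, 49.8 and 82.4 CPM, against 15.1, 8.62, 24.8 and 10.4 CPM (log2 1.90 ± 0.55, adjusted p = 0.0407). None of the 3 overlapped, and library 13 was the highest for each. Col22a1 was at 27.4, 33.9 and 31.6 CPM, against 24.1, 18.4, 12.6 and 8.72 CPM (log2 0.96 ± 0.25, adjusted p = 0.0274).

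Col4a1 was at 360, 237 and 372 CPM after collagenase, against 649, 507, 583 and 544 CPM in saline day 38 (log2 -0.82 ± 0.17, adjusted p = 0.00839). Col4a2 was at 250, 178 and 273 CPM, against 440, 362, 395 and 378 CPM (log2 -0.75 ± 0.16, adjusted p = 0.0103). Neither overlapped. Endothelial markers, 6 in all, summed to 563 to 761 CPM after collagenase and 803 to 990 CPM in saline day 38, and 6 pericyte and smooth muscle markers summed to 395 to 534 CPM and 727 to 742 CPM. Bone markers summed to 142 to 372 CPM after collagenase and 37.1 to 39.7 CPM in saline day 38, with 7 of 10 called higher, and neutrophil markers to 69.9 to 648 CPM and 3.61 to 5.34 CPM, with 6 of 6 higher. Of the 4 cartilage markers tested, 3 were higher. Skeletal muscle markers, 6 in all, summed to 65416 to 72212 CPM after collagenase and 104129 to 125659 CPM in saline day 38, with 4 lower. The part of these markers in the difference was not tested. The call of Col18a1 (log2 -0.77 ± 0.22, adjusted p = 0.0394) was lost whichever of the 7 libraries was left out, that of Col16a1 without collagenase library 13, and that of Col4a2 without collagenase library 12. The calls of Col12a1, Col13a1, Col22a1, Col24a1 and Col28a1 were lost in 3 to 5 of the 7 such fits, each without collagenase library 12 among them. No member was called against both saline groups.

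The 2 saline groups also differed from each other. In saline day 38, 15 of 36 members were higher than in saline day 28 and 0 were lower, where 24.6% of all genes were called and 11.7% were higher. The 15 were 5 fibrillar (Col1a2, Col3a1, Col5a1, Col5a2, Col5a3), 3 type IV (Col4a1, Col4a2, Col4a4), 4 type VI (Col6a1, Col6a2, Col6a3, Col6a6) and the basement membrane collagens Col15a1 and Col18a1 with Col19a1. The median over all members was 0.74, against -0.05 over all genes. Day, layout and sex-linked genes all separate these 2 groups and cannot be told apart. Without saline day 38 library 1 the calls of Col1a2, Col3a1, Col4a4, Col5a2, Col5a3 and Col6a6 were lost.

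Col6a2, an alpha-2 chain that pairs with Col6a1, averaged 189 ± 50.3 CPM in saline day 38 and 62.1 ± 14.8 CPM in saline day 28 (SD, n = 4 each; log2 1.61 ± 0.30, adjusted p = 0.00219). Col6a3 was at 191, 94.2, 164 and 179 CPM in saline day 38, against 77.1, 64.2, 45.8 and 62.3 CPM in saline day 28 (log2 1.34 ± 0.26, adjusted p = 0.00294). Col15a1, which ties muscle and capillary basement membranes to fibres, averaged 99.1 ± 17.8 CPM and 50.9 ± 7.11 CPM in the same order (log2 0.96 ± 0.17, adjusted p = 0.00154). These groups did not overlap. Col4a1 averaged 571 ± 60.5 CPM in saline day 38 and 324 ± 46.3 CPM in saline day 28 (log2 0.82 ± 0.16, adjusted p = 0.00241). Fibroblast markers summed to 795 to 1324 CPM in saline day 38 and 424 to 718 CPM in saline day 28, while bone markers summed to 37.1 to 39.7 CPM and 34.5 to 150 CPM. Tendon markers, 5 in all, summed to 292 to 968 CPM in saline day 38 and 84.9 to 140 CPM in saline day 28, with 3 called higher. Skeletal muscle markers summed to 104129 to 125659 CPM and 52046 to 85696 CPM, with 4 of 6 higher, and 5 of 6 macrophage and 4 of 6 Schwann cell markers were higher too. Of 5 B cell markers, 4 were lower, with sums of 0.340 to 0.526 CPM in saline day 38 and 0.131 to 58.1 CPM in saline day 28. Among those tested, 1 of 4 cartilage and 1 of 3 brain markers were lower, and of 10 bone markers 1 was higher and 1 lower. Over all genes tested, 11.7% were higher and 12.9% lower. The part of these markers was not tested.

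**Figure D4:**
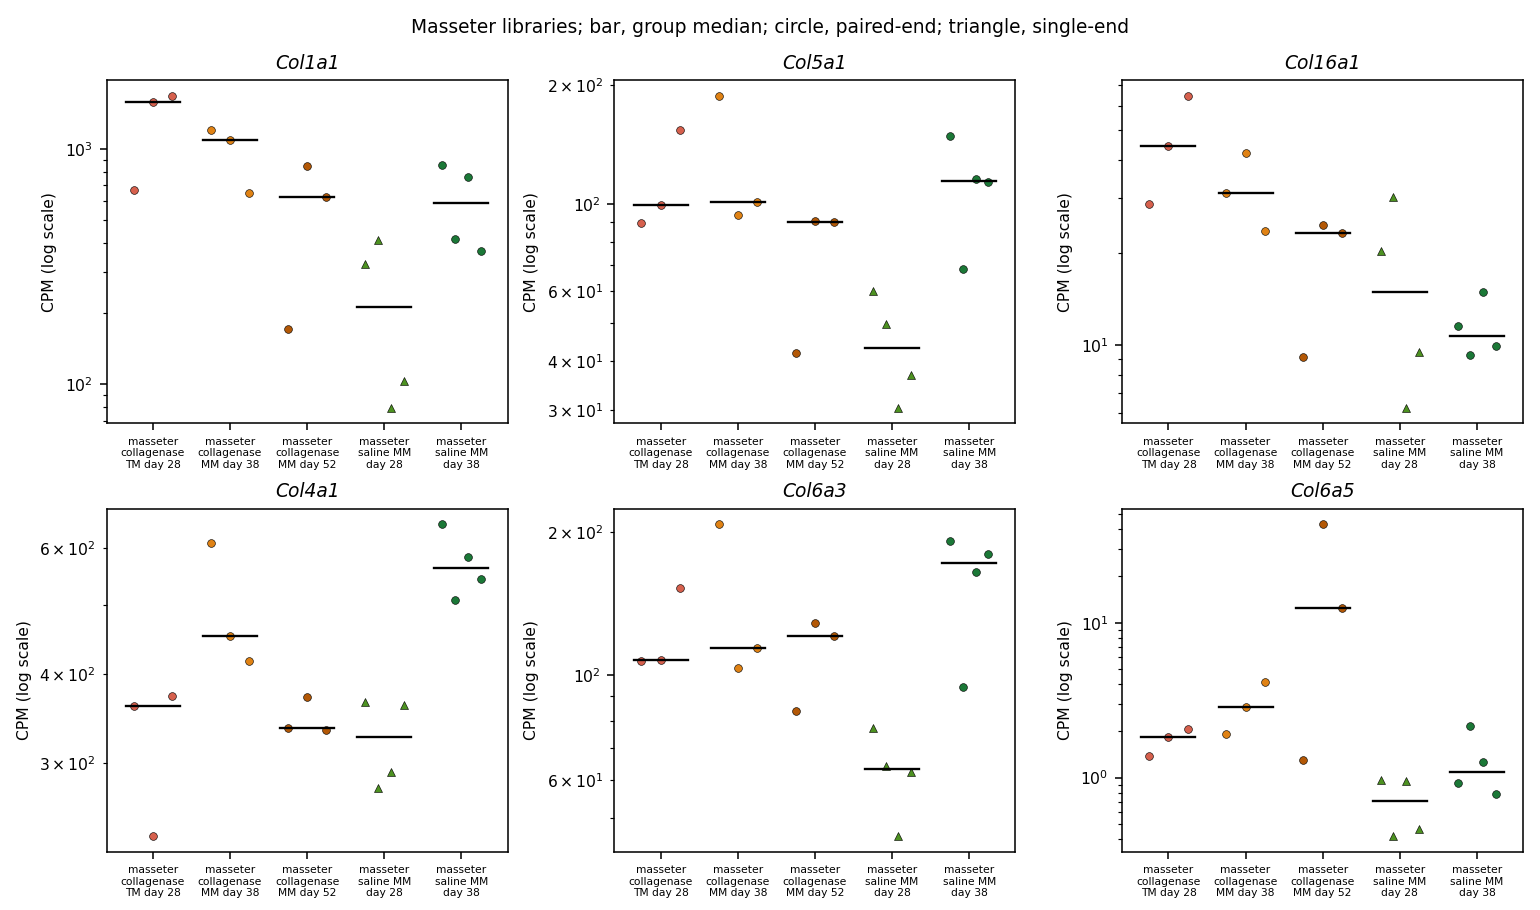
CPM (log axis) of 6 collagens in each masseter library, by group, with a bar at the group median; circles are paired-end and triangles single-end. Col1a1 after temporal-muscle collagenase (672 to 1681 CPM) lies above saline day 28 (79.5 to 411 CPM) but overlaps saline day 38 (368 to 851 CPM), and Col6a5 reaches 43.1 CPM in 1 day 52 library.

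In the masseter injected with collagenase itself, no collagen passed the test at day 38 against saline of the same day. None of 36 members was called (0.867% of all genes were). At an unadjusted p under 0.05 stood 9, where 17.8% of all genes did, and DESeq2 called 2, Col16a1 and Col18a1, where it called 5.01% of all genes. Col1a1 was at 1207, 1091 and 653 CPM after collagenase, against 851, 413, 760 and 368 CPM in saline, and its log2 fold change of 0.72 had a 95% interval of -0.45 to 1.89. Col18a1 was at 92.5, 42.6 and 47.4 CPM, against 40.1, 33.4, 35.5 and 36.6 CPM in saline (log2 0.74, adjusted p = 0.107). Col16a1 was at 31.1, 42.3 and 23.6 CPM, against 11.6, 9.32, 14.9 and 9.93 CPM in saline (log2 1.5, adjusted p = 0.123). For both, all 3 collagenase libraries lay above all 4 saline libraries. For Col4a3, Col19a1 and Col20a1, all 3 lay below all 4. The share of all genes that separated in either way was not counted for this comparison.

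At day 52, 2 members differed from saline day 38, 1 in each direction, where 0.758% of all genes were called and 0.287% were higher. Col4a2 was lower, at 198, 253 and 231 CPM after collagenase, against 440, 362, 395 and 378 CPM in saline, with no overlap (log2 -0.79 ± 0.16, adjusted p = 0.0415), though the call was lost whichever of the 7 libraries was left out. Its partner Col4a1 was at 336, 372 and 334 CPM, against 649, 507, 583 and 544 CPM, also with no overlap, and was not called (log2 -0.72, adjusted p = 0.0701). Endothelial markers summed to 547 to 663 CPM in the same libraries and to 803 to 990 CPM in saline, and pericyte and smooth muscle markers to 513.8 to 525.96 CPM and 727 to 742 CPM; their part was not tested. Col6a5 was higher, at 1.31, 43.1 and 12.5 CPM after collagenase, against 0.923, 2.15, 1.26 and 0.789 CPM in saline (log2 3.89 ± 0.75, adjusted p = 0.031). Only 2 of the 3 lay above saline, and the call was lost in 6 of the 7 fits that left out 1 library, all but the one without library 8; without library 9 the log2 fold change was 2.44 (adjusted p = 0.126).

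Between day 52 and day 38 after injection no member was called, where 0.0956% of all genes were and 0.0751% were higher. At an unadjusted p under 0.05 stood 6, where 18.6% of all genes did, and DESeq2 called 4, where it called 7.23% of all genes. Col18a1 was at 28.0, 36.3 and 36.9 CPM at day 52, against 92.5, 42.6 and 47.4 CPM at day 38 (log2 -0.85, adjusted p = 0.0871). Col15a1 was at 45.0, 74.3 and 68.4 CPM at day 52, against 112, 88.5 and 103 CPM at day 38 (log2 -0.69, adjusted p = 0.0954). For both genes each day 52 library lay below each day 38 library, as for Col4a1, Col4a2, Col5a1 and Col22a1. For Col19a1 each day 52 library lay above. The share of all genes that separated was not counted for this comparison. The fibrillar median was -0.58 against 0 over all genes.

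**Figure D5:**
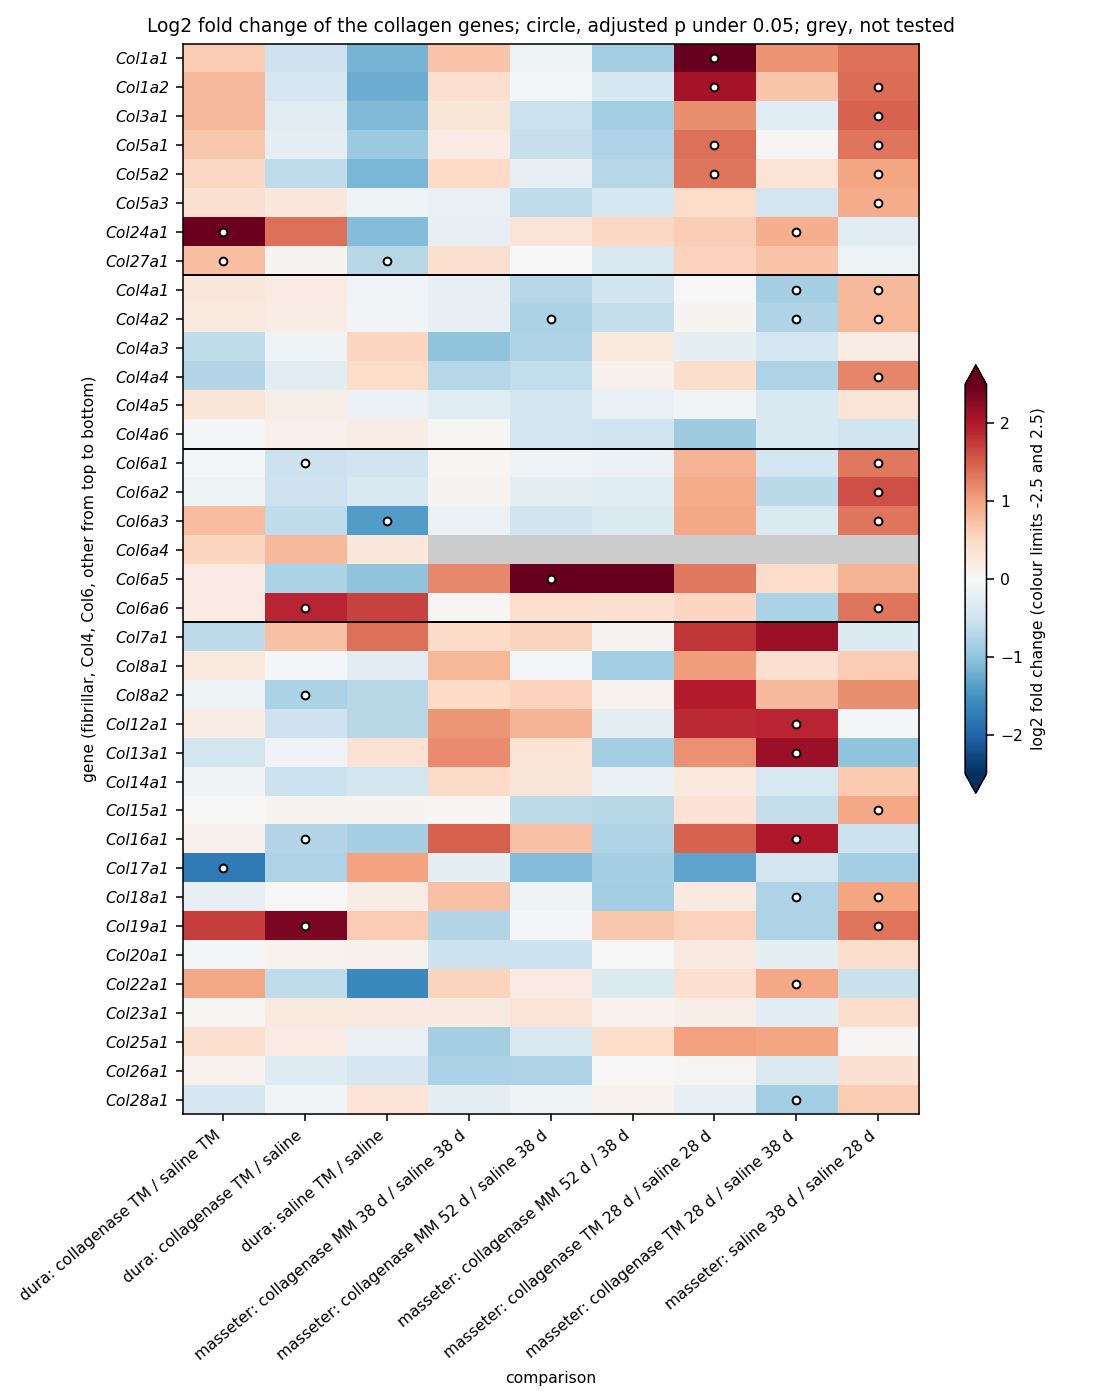
Log2 fold change of each collagen (rows, grouped as fibrillar, type IV, type VI and other) in the 9 comparisons (columns), coloured between -2.5 and 2.5, with a circle where the adjusted p is under 0.05 and grey where the gene was not tested. Collagenase columns hold 0 to 9 circles, the most in temporal-muscle collagenase against saline day 38, where 10.9% of all genes were called. The last column, saline day 38 against saline day 28, holds 15, where 24.6% of all genes were called.

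Ratios between partner chains varied less than their levels in the Col4a1 and Col4a2 pair. The ratio of Col4a1 to Col4a2, on the TPM scale, was 1.05 to 1.65 in the 39 libraries while Col4a1 itself ran from 162 to 735 CPM. Col6a1 to Col6a2 was 0.848 to 1.18 outside dura collagenase libraries 1 and 7, the higher of which was at 1.68. Col1a1 to Col1a2 was 1.04 to 1.52 in dura and 0.482 to 1.01 in masseter, where the 3 libraries after temporal-muscle collagenase were at 0.956 to 1.01, above the 0.575 to 0.769 of saline day 28 and the 0.652 to 0.774 of saline day 38. The injected masseter of day 38, at 0.795 to 0.940, also lay above both saline groups, and that of day 52, at 0.482 to 0.7996, overlapped them. Col1a1 to Col3a1 was 1.48 to 3.02 in those 3 libraries, against 0.483 to 1.28 in saline day 28 and 0.623 to 1.02 in saline day 38. Chains of a pair share library, depth and cells.

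The enzymes that fold, trim and crosslink collagen, and those that bind or degrade it, were read from lists of known genes. In dura against temporal-muscle saline, 1 of 19 tested folding and modification genes was higher and 0 lower, where 13.3% and 11.1% of all genes were, that gene being the prolyl hydroxylase subunit P4ha1 (log2 0.62, adjusted p = 0.0276), and 0 of 6 crosslinking enzymes were called. Against saline, 7 of the 19 were lower and 0 higher, where 15.3% and 21.4% of all genes were, among them the prolyl isomerases Ppib (log2 -0.67, adjusted p = 0.0013) and Fkbp10 (log2 -0.97, adjusted p = 0.00276), and 2 of 6 crosslinking enzymes were lower, Loxl1 and Loxl3. Of 12 tested genes for secretion and propeptide removal, 1 was lower, the propeptidase enhancer Pcolce (log2 -0.95, adjusted p = 0.00815), and 1 was higher.

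In masseter after temporal-muscle collagenase, 3 of 19 folding genes were higher than in saline day 28 and 0 lower, where 1.17% and 1.77% of all genes were. These were Fkbp10, at 17.9 ± 5.83 CPM after collagenase and 6.80 ± 1.51 CPM in saline (SD, n = 3 and 4; log2 1.39, adjusted p = 0.0156), the lysyl hydroxylase Plod2 (log2 1.13, adjusted p = 0.0309) and the collagen chaperone Serpinh1 (log2 0.70, adjusted p = 0.0492). Of 8 collagen-degrading proteases, 1 was higher, the fibroblast protease Fap (log2 1.29, adjusted p = 0.0203). Against saline day 38, 5 of the 8 were higher and 0 lower, where 5.12% and 5.79% of all genes were. Among the 5 was the collagenase Mmp13, at 27.6 ± 8.51 CPM after collagenase and 0.484 ± 0.227 CPM in saline day 38 (log2 5.85, adjusted p = 0.0192). Mmp13 was at 9.62 ± 11.8 CPM in saline day 28, and its difference between the 2 saline groups was called too (log2 -4.33, adjusted p = 0.0318).

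In the injected masseter at day 38, P4ha3, a prolyl hydroxylase subunit, was higher at 2.19 ± 1.43 CPM after collagenase and 0.185 ± 0.0742 CPM in saline (SD, n = 3 and 4; log2 3.50, adjusted p = 0.0228). The growth factor Tgfb1, which drives collagen production, was at 26.6 ± 1.40 CPM and 16.0 ± 0.667 CPM in the same order (log2 0.73, adjusted p = 0.0201). The collagen receptor subunit Itga1 was lower (log2 -0.63, adjusted p = 0.0469). Each was the only gene called on its list: 1 of 19 folding, 1 of 15 TGF-beta pathway and 1 of 12 tested receptor genes. Of all genes, 0.334% were higher and 0.532% lower. At day 52 none of the genes on the 7 lists of collagen partners was called against saline day 38, where 0.758% of all genes were. Between the saline groups, 8 of 19 folding genes, 4 of 6 crosslinking enzymes and 7 of 11 small leucine-rich proteoglycans were higher in saline day 38, with 1, 0 and 0 lower. Of all genes, 11.7% were higher and 12.9% lower. Among the higher ones were Serpinh1 (log2 1.10, adjusted p = 4.66e-04), Loxl2 (log2 1.41, adjusted p = 0.00462) and Dcn, the fibril-coating decorin (log2 1.01, adjusted p = 0.00605).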

How the data were processed

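Poly-A-selected, stranded RNA-seq libraries were sequenced as 50-base single-end or 100-base paired-end reads, per the labels' protocols, and processed with bcl2fastq, Trim Galore and RSEM on mm10, per the submitters' processing notes. The sources used here name no aligner, version or annotation release. Per the file headers, RSEM's expected counts, as deposited, are estimates for each gene with no scaling across libraries. TPM, also deposited, carry RSEM's scaling by gene length within a library, per the file headers. Layout was read from the deposited length minus effective length, 49.49 to 49.55 bases in 14 libraries (single-end) and 212.5 to 237 in 25 (paired-end).

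Counts were rounded and fitted once per tissue with all groups in edgeR 4.0.16 (R 4.3.3): filterByExpr, TMM and the quasi-likelihood test, with Benjamini-Hochberg adjustment over 16363 genes in dura and 14652 in masseter, checked on simulated data. A gene was called at an adjusted p under 0.05. CPM use TMM-scaled totals; TPM served for class sums, order and ratios. Chi-square per gene within groups was 14.9 to 568 over 108 pairs, so each library counted once. The collagens and all lists were chosen with earlier results of these data known. Every collagen could be named, and up to 4 genes with the smallest p of each partner list. Some partner genes stand under older symbols in the files. Alternatives were RLE scaling, an effective-length offset, no filter, DESeq2 1.42.0, limma 3.58.1 on log2(TPM + 1), fits of 2 groups alone, a replicate block, and leaving out each library or the 5 dura libraries named in the text. Intervals of fold changes are at the 95% level. Same-numbered libraries did not deviate together.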

Additional observations from a re-analysis of the deposited data

Results flagged for a closer look

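Of 146 sets of 4 to 10 library values of the members tested by Dixon's rule, 4 held a library far from the others, and chance gives about 1 in 20. In temporal-muscle saline, dura library 1 was high for Col8a2, at 555.976 CPM with the next at 486.12 CPM. Dura library 2 of the same group was high for Col19a1, at 1.04563 CPM with the next at 0.207161 CPM. In saline day 28 masseter, library 2 was high for Col17a1, at 12.1 CPM with the next at 2.58997 CPM. Library 3 of that group was low for Col23a1, at 4.08943 CPM with the next at 6.37923 CPM.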

How the results depend on the processing

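No called collagen changed sign under any alternative run; Col6a2, Col6a3 and Col19a1, between the saline groups, kept their calls in each. The share of all genes called moved with the setting too, so the counts below are not a result about collagens alone. For the dura controls it was 4.25% in the main fit and 29.4% as 2 groups alone. For collagenase in the masseter at day 38 it was 0.867%, and 5.01% with DESeq2. For temporal-muscle collagenase against saline day 28 it was 2.95%, and 0.657% as 2 groups alone. Counts of collagens called moved as follows, given without that share for each setting. Dura, collagenase against temporal-muscle saline (3): 9 without the 5 libraries named above, 0 with the replicate block, 0 in the same libraries without it, 2 to 4 leaving out 1 library. Dura, collagenase against saline (5): 10 with the effective-length offset, 8 with limma on TPM, 16 without the 5 libraries, 0 with the block, 1 in the same libraries without it, 4 to 9 leaving out 1. Dura controls (2): 1 with no filter, 5 with DESeq2, 1 with limma, 19 as 2 groups alone, 17 with the block, 19 in the same libraries without it, 0 to 2 leaving out 1. Masseter, collagenase in the masseter at day 38 (0): 2 with DESeq2, 0 to 0 leaving out 1. At day 52 against saline (2): 4 with DESeq2, 0 with limma, 0 to 1 leaving out 1. Day 52 against day 38 (0): 4 with DESeq2, 0 to 0 leaving out 1. Temporal-muscle collagenase against saline day 28 (4): 1 with the offset, 9 with DESeq2, 0 with limma, 0 as 2 groups alone, 0 to 3 leaving out 1. Against saline day 38 (9): 2 with limma, 3 to 7 leaving out 1. Saline day 38 against saline day 28 (15): 3 with limma, 11 with the block, 10 to 15 leaving out 1. The cause was not tested. The block used replicate numbers that the data do not pair: correlations of same-numbered libraries ran from -0.336 to 0.291. Collagens are long (median 6207 bases in dura, against 2561 over all genes), and across genes, which are not independent replicates, log2 fold change and length had a Spearman rho of 0.36 in dura collagenase against temporal-muscle saline.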
